A study of Mus musculus with 577 samples.

Results

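The mouse NLRP genes expressed in oocytes were followed through every gene table of the series. The 9 genes, Nlrp2, Nlrp4a, Nlrp4b, Nlrp4c, Nlrp4e, Nlrp9a, Nlrp9b, Nlrp9c and Nlrp14, were chosen by name, as the rows whose symbol matched, and all 9 were found among 22060 protein-coding genes. Levels are given as RPM, the read count scaled to a common total of reads on protein-coding genes, and differences as differences of the mean of log2(RPM + 1).

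The study profiled single cells cut out by laser capture microdissection (LCM) from alcohol-fixed, stained 15 μm frozen sections of ovaries of 8-week-old mice. Its lysis method, named DRaqL for the direct recovery of RNA and the quenching of the detergent, was joined to SC3-seq, which reads the 3′ ends of mRNA, or to the SMART-Seq v4 kit or Smart-seq2, and a protease step was added for sections kept 24 h in 10% formalin. Oocytes were labelled by their follicle, as primary or as secondary to antral (called later oocytes here). There were 14 primary and 30 later oocytes by DRaqL-SC3-seq, 7 and 11 by the kit alone, 6 and 9 by DRaqL with the kit, and 5 and 7 after formalin. A separate set held 8 later oocytes cut from an ovary of a mouse and 14 grown oocytes dissociated from the other ovary of that mouse, together with granulosa cells from both. Granulosa cells, the somatic cells around the oocyte, were labelled as neighboring or non-neighboring to it, and were captured singly, in pools of 10 cells, or as bulk samples. Mouse embryonic stem cells (mESCs) in 2i-LIF medium were taken fresh (45 cells) or by LCM from cell blocks (36 cells). The labels give no genotype or strain. By the study's methods, the dissociated cells of the same-mouse set were isolated in a medium with dibutyryl-cAMP, a cAMP analog, while the other ovary was frozen. The labels name no animal for a cell, so each group of single cells counts as 1 sample: its spread is given as SD over cells, and no p-value was computed from cells. In that case a gene was counted as higher or lower when its means differed by more than 1 on the log2 scale, which is 2-fold. Over 562 libraries in 8 gene tables, reads on protein-coding genes ran from 12748 to 17506401 per library with a median of 626534, and no pair of libraries held identical counts. Granulosa markers had a median sum of 6359 RPM in neighboring and 7467 RPM in non-neighboring cells of DRaqL-SC3-seq, and oocyte markers of 36921 RPM in later oocytes, as the labels have it.

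NLRP proteins carry an N-terminal pyrin domain, a NACHT nucleotide-binding domain and leucine-rich repeats. Some members, such as NLRP3, assemble inflammasomes in immune cells by recruiting the adaptor Pycard and caspase-1. Another branch of the family is known from oocytes and early embryos, where Nlrp5 (Mater) and Nlrp2 belong to the subcortical maternal complex, a store of maternal proteins beneath the egg membrane. Mouse Nlrp2 and Nlrp14 are maternal effect genes, whose loss in the mother harms the early embryo. The Nlrp4 and Nlrp9 genes exist in several mouse copies, and outside the ovary Nlrp9b is known as a sensor of viral RNA in the intestinal epithelium.

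All 9 genes lay on chromosome 7 (GRCm38). Nlrp9c (chr7:26322473-26403700, minus strand), Nlrp4a (chr7:26435113-26476142, plus) and Nlrp9a (chr7:26535023-26575615, plus) stood side by side within 253 kb. Nlrp9b (chr7:19991465-20073306), Nlrp4e (chr7:23301192-23362277), Nlrp4b (chr7:10687789-10730168) and Nlrp4c (chr7:6045161-6105150) followed on the plus strand, Nlrp2 lay at chr7:5298547-5351035 on the minus strand, and Nlrp14 far apart at chr7:107166990-107198102 on the plus strand. The coding copies resembled each other: the annotated transcripts of Nlrp4c and Nlrp4e were 87% identical, those of Nlrp9a and Nlrp9c 84.9%, and those of Nlrp9a and Nlrp9b 82.8%.

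An internal coding exon of 171 bases shows how close the Nlrp9 copies are, and how much sequence is left to tell their reads apart. The capitals mark the bases that neither of the other copies has at that position. The exons are given 5′ to 3′ along the gene, from chr7:26571240-26571410 (plus strand) for Nlrp9a, chr7:20049424-20049594 (plus) for Nlrp9b and chr7:26371291-26371461 (minus) for Nlrp9c, all GRCm38.
Nlrp9a: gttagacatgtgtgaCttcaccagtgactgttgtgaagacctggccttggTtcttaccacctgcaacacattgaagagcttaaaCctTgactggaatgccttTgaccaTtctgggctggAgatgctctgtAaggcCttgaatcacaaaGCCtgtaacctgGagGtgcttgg
Nlrp9b: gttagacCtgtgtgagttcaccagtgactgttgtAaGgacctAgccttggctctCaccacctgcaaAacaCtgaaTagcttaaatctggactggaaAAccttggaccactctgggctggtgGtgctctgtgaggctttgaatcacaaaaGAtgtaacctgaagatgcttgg
Nlrp9c: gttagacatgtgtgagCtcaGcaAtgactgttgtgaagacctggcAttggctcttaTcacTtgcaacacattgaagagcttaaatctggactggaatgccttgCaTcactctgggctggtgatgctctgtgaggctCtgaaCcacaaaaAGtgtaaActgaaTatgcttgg
Nlrp9a and Nlrp9b, and Nlrp9b and Nlrp9c, were identical at 85.4% of the positions, and Nlrp9a and Nlrp9c at 84.8%. Nlrp9a had 14 bases of its own, Nlrp9b 13 and Nlrp9c 14. At the last 1000 bases of the transcripts, where 3′-end methods place most reads, 11.2% of 50-base windows of Nlrp9b, 7.22% of those of Nlrp9a and 5.28% of those of Nlrp9c also occurred in a transcript of another gene. The share was 5.38% for Nlrp4c, 4.73% for Nlrp4e, 0.946% for Nlrp4a, and 0% for Nlrp2, Nlrp4b and Nlrp14. For Nlrp9a, Nlrp9c, Nlrp4c and Nlrp4e, the other gene was a member each time. For Nlrp9b it was a member in 7.85% of the windows and for Nlrp4a in 0.27%. Reads from the shared stretches could be split or lost between such genes, which limits the values of Nlrp9a, Nlrp9b, Nlrp9c, Nlrp4c and Nlrp4e.

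Promoter sequences (250 bases before to 50 after the RefSeq start, GRCm38.p6) were matched for 8 of the 9 members, with 10 start sites. The sequences of the Nlrp9 genes are shown because these genes were near 0 in many primary oocytes and at over 100 RPM in most later ones, as the stage comparison shows. Capitals mark matches, on either strand, to TAATTG and TAATTA, which are core letters bound by oocyte homeobox factors such as Nobox, to the E-box CANNTG, which Figla and other basic helix-loop-helix factors bind, and to the TATA-box letters TATAAA. The windows are chr7:26534773-26535072 (plus strand) for Nlrp9a, chr7:20007773-20008072 (plus) for Nlrp9b and chr7:26403651-26403950 (minus) for Nlrp9c.
Nlrp9a: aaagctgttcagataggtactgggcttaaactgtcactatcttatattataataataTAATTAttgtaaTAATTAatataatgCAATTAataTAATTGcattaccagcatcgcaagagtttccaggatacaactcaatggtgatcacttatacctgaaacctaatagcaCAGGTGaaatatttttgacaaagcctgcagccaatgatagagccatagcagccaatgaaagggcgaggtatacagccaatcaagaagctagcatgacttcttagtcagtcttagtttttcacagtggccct
Nlrp9b: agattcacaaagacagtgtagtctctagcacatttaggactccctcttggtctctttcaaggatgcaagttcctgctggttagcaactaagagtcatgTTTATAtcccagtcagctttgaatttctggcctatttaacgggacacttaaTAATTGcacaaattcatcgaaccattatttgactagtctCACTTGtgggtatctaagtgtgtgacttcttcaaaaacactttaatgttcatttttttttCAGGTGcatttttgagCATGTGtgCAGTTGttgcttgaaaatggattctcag
Nlrp9c: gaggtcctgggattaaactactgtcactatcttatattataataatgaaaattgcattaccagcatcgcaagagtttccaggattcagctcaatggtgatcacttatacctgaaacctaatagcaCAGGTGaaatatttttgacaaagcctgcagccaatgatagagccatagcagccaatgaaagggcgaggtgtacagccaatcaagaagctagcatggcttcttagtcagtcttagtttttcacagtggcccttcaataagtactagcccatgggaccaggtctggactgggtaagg
TAATTG was found in the windows of Nlrp9a and Nlrp9b and in 8.00% of all 32851 promoters, and TAATTA in that of Nlrp9a and in 5.29% of all. TATAAA was found in Nlrp9b and in 13.6% of all. CANNTG, a short and common pattern, was found in 7 of the 8 member genes, all but Nlrp2, and in 72.3% of all promoters. The windows of Nlrp9a and Nlrp9c were 67.7% identical, while the closest pair, Nlrp4a and Nlrp4b, reached 71%.

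The first comparison asked when in follicle growth the genes came on, between primary and later follicle oocytes. In DRaqL-SC3-seq, 8 of the 9 members were higher in later oocytes by more than 1, against 21.2% of all 20696 genes. Their differences ran from 1.94 for Nlrp4c to 4.94 for Nlrp2, while Nlrp14 differed by 0.54, and the median over the 9 was 3.75 against 0.04 over all genes. The oocytes of primary follicles thus carried much Nlrp14 and little of the rest, and later oocytes carried nearly the whole family.

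Nlrp2, of the subcortical maternal complex, had 2.22 RPM in the lowest, 9.34 in the median and 59.5 in the highest of the 14 primary oocytes. In the 30 later oocytes it had 34.4, 355 and 521 RPM. It was higher by 4.94 (8.21 ± 0.80 in later and 3.27 ± 1.08 in primary oocytes, mean ± SD of log2(RPM + 1), n = 30 and 14), and 29 later oocytes lay above every primary oocyte. The overlap thus came from 1 later oocyte.

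The Nlrp9 genes, copies of the intestinal virus sensor gene and its neighbours, moved by about as much. Nlrp9a had a lowest, median and highest value of 0, 7.07 and 99.7 RPM in primary and 24.5, 247 and 493 RPM in later oocytes, a difference of 4.57. Nlrp9b went from 1.35, 4.33 and 16.1 RPM to 0, 172 and 448 RPM, a difference of 4.36. Nlrp9c had 0, 5.65 and 39.7 RPM in primary and 2.65, 230 and 391 RPM in later oocytes, a difference of 4.39. Of the 30 later oocytes, 27, 28 and 27 lay above every primary oocyte for Nlrp9a, Nlrp9b and Nlrp9c. The exceptions for Nlrp9b were a pair of later oocytes that had 1.20 and 0 RPM of it, and 6.5 and 2.65 RPM of Nlrp9c. Without that pair, the median difference over the 9 members was 3.84.

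The Nlrp4 genes, a mouse-expanded group expressed in oocytes, showed more overlap between the stages. Nlrp4a had a lowest, median and highest value of 1.65, 16.1 and 205 RPM in primary and 66.9, 285 and 446 RPM in later oocytes, a difference of 3.75. Nlrp4b had 0, 41.2 and 251 RPM in primary and 110, 373 and 641 RPM in later oocytes, a difference of 3.20. For both genes 23 of the 30 later oocytes lay above every primary oocyte, since a few primary oocytes already had over 100 RPM. Nlrp4e went from 0, 12.5 and 113.5 RPM to 8.61, 72.2 and 138 RPM, a difference of 2.34, and only 4 later oocytes lay above every primary oocyte. Nlrp4c was low at both stages, with 0, 0.715 and 19.2 RPM in primary and 1.27, 10.5 and 32.3 RPM in later oocytes, a difference of 1.94.

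Nlrp14, the maternal effect gene outside the cluster, was already abundant in primary oocytes. It had a lowest, median and highest value of 711, 1808 and 2817 RPM in primary and 1119, 2568 and 4729 RPM in later oocytes. The means were 10.75 ± 0.63 and 11.29 ± 0.43, so that their difference of 0.54 was smaller than the SD over primary oocytes. Nlrp14 made up 70.5 to 97.6% (median 89.4%) of the summed RPM of the 9 genes in primary oocytes, and 41.6 to 90.2% (median 60.2%) in later ones. The sum itself ran from 917 to 3202 RPM (median 1916) and from 2555 to 5753 RPM (median 4468).

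**Figure D1:**
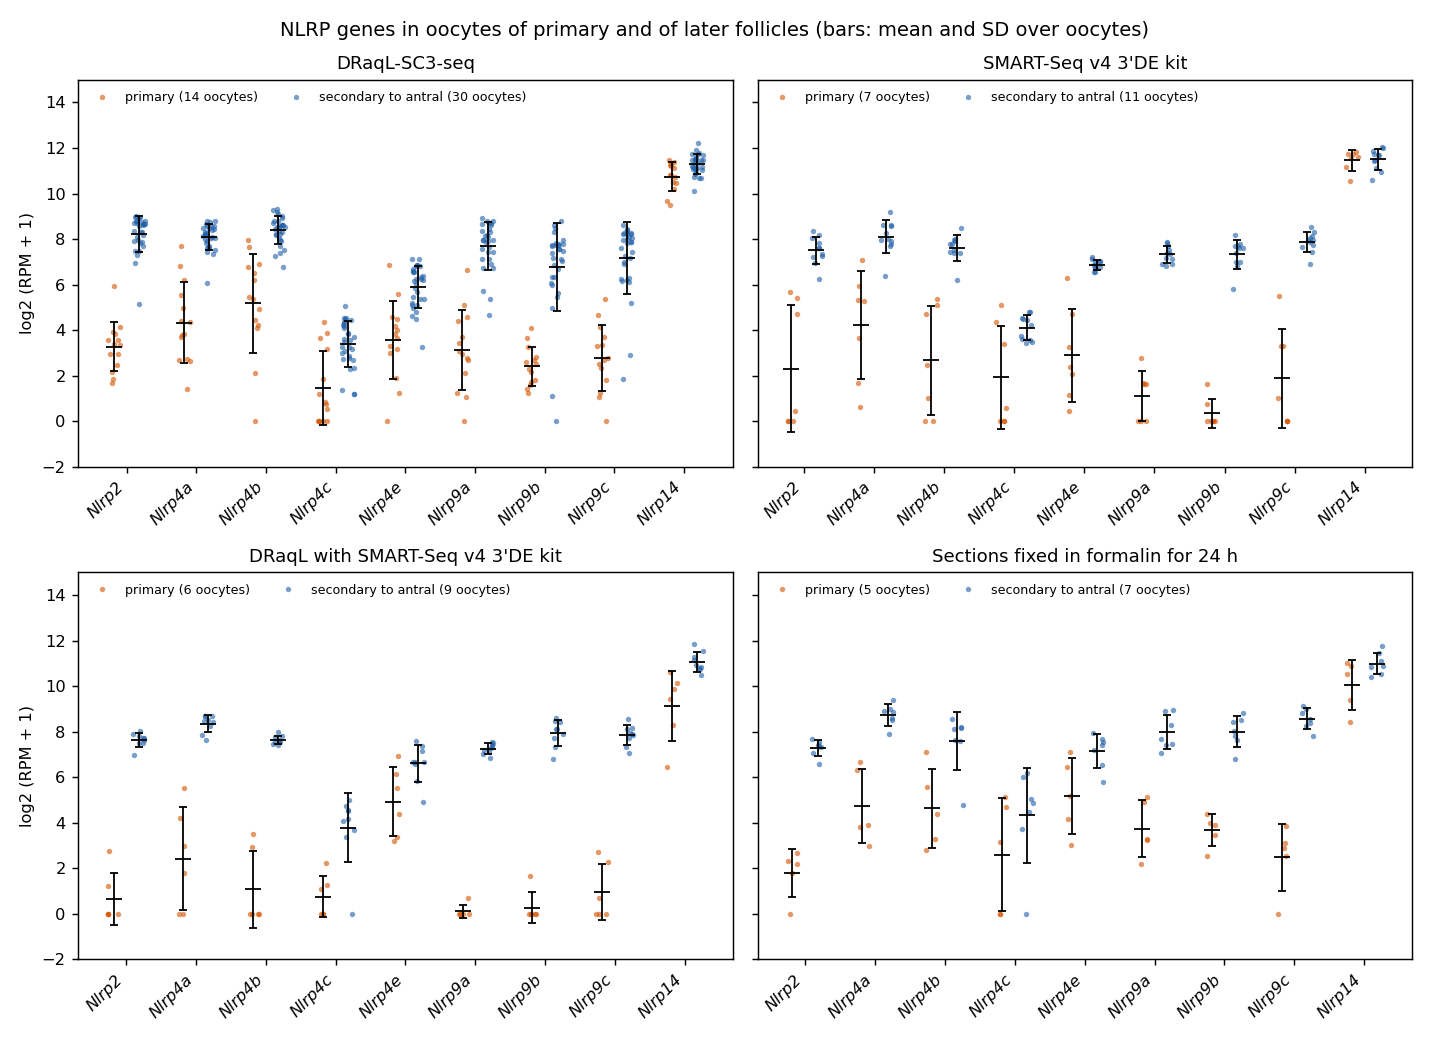
The log2(RPM + 1) of each gene in primary and later follicle oocytes is plotted by method, with bars for the mean and SD over oocytes. Points are single oocytes. The means of the 8 genes other than Nlrp14 are higher in later oocytes in every panel, while those of Nlrp14 lie close together with the kit (11.46 and 11.51) and farthest apart in DRaqL with the kit (9.14 and 11.08).

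The other methods, each with its own cells and table, gave the same direction for the 8 genes, while the difference of Nlrp14 varied. With the kit alone, 8 of 9 members were higher in later oocytes by more than 1, against 24.8% of all genes, with a median difference of 4.95 against 0.19. No primary oocyte reached the lowest later oocyte for Nlrp2, Nlrp4b, Nlrp4e, Nlrp9a, Nlrp9b and Nlrp9c, a separation that 2.93% of all genes showed. Nlrp9b had 0, 0 and 2.08 RPM as lowest, median and highest value in the 7 primary oocytes and 55.7, 195 and 292 RPM in the 11 later ones. Nlrp2 had 0, 0.345 and 49.6 RPM in primary and 75.4, 193 and 323 RPM in later oocytes, and Nlrp9a had 0, 2.08 and 5.86 RPM and 110, 162 and 233 RPM. The Nlrp9 genes were thus at the level of single reads in most primary oocytes of this set. Nlrp4e, whose stages overlapped widely in DRaqL-SC3-seq, had 0.345, 4.23 and 77.1 RPM in primary and 92.9, 115.8 and 147 RPM in later oocytes. Nlrp14 had 1497, 3151 and 3617 RPM in primary and 1531, 3267 and 4164 RPM in later oocytes, a difference of 0.05 between 11.46 ± 0.46 and 11.51 ± 0.46 (n = 7 and 11).

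In DRaqL with the kit, all 9 members were higher in later oocytes, by 1.68 to 7.67 with a median of 6.56, against 26.3% of all genes. Nlrp2, Nlrp4a, Nlrp4b, Nlrp9a, Nlrp9b and Nlrp9c did not overlap between the stages (5.03% of all genes). Among the 6 primary oocytes, Nlrp9a was present as 2 reads in 1 oocyte and Nlrp9b as 1 read in 1 oocyte, while the 9 later ones had 112.5 to 188 RPM and 112.1 to 384 RPM. Nlrp14 also differed here, from a lowest, median and highest value of 87.7, 813 and 1559 RPM to 1441, 1943 and 3735 RPM, a difference of 1.94. Nlrp4e moved least, from 8.29, 32.5 and 122 RPM to 28.9, 101.9 and 193 RPM, a difference of 1.68. After 24 h in formalin, 8 of 9 were higher in later oocytes, against 20.9% of all genes, with a median difference of 4.00 and a range from 0.95 for Nlrp14 to 6.09 for Nlrp9c (2.48 in primary and 8.57 in later oocytes). There, Nlrp2, Nlrp4a, Nlrp9a, Nlrp9b and Nlrp9c did not overlap (2.77% of all genes). Over all 4 methods, Nlrp2, Nlrp4a, Nlrp4b, Nlrp4c, Nlrp4e, Nlrp9a, Nlrp9b and Nlrp9c were higher in later oocytes by more than 1 each time, while Nlrp14 was so in 1 of 4.

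The stages also differed in other measures. The median of the summed RPM of 14 oocyte markers was higher in later oocytes, from 9447 to 36921 (DRaqL-SC3-seq), 8944 to 28607 (kit), 4273 to 26420 (DRaqL with kit) and 4651 to 29134 (formalin). That of 10 granulosa markers went from 583 to 140, 660 to 389, 409 to 199 and 1018 to 587. The part of these shifts in the members' differences was not tested. The paper names many of the oocyte markers, Gdf9 and Obox genes among them, as strong contributors to an axis of the DRaqL-SC3-seq oocytes. It proposes that this axis stands for oocyte growth, so the markers' rise with stage is not an independent finding. Reads on genes per read of the ERCC spike-in RNA were higher in later oocytes by 1.82, 3.13 and 1.89 on the log2 scale in the 3 sets that had them. Per 1000 ERCC reads, Nlrp14 was accordingly higher in later oocytes by 1.84 with the kit, 4.52 in DRaqL with the kit and 2.42 after formalin: its near-equal RPM stands for an equal share of the mRNA read, and a larger amount beside the spike-in. The kit's 7 primary oocytes shared their library pool with a single later oocyte, and against that oocyte alone the median difference was 3.65. In DRaqL with the kit, no library pool held both stages, so pool and stage cannot be told apart there.

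Levels between genes were compared per kb of transcript, although reads from 3′ ends do not grow with transcript length, and division by it lowers long transcripts. In the 30 later oocytes of DRaqL-SC3-seq, Nlrp14 stood first with 797 ± 231 RPM per kb (mean ± SD). Nlrp4b (108.5 ± 41.4), Nlrp2 (97.0 ± 37.2), Nlrp9a (75 ± 39.2), Nlrp4a (67.6 ± 22.1), Nlrp9c (61.7 ± 34.8) and Nlrp9b (50.0 ± 33.3) followed, each within the SD of its neighbour in the order. Nlrp4e had 20.5 ± 10.8 RPM per kb and Nlrp4c 3.26 ± 2.1 RPM per kb. The gaps between Nlrp14 and Nlrp4b and between Nlrp4e and Nlrp4c exceeded the SDs. In RPM the order differed in places: Nlrp4a, with a median of 285 RPM, stood above Nlrp9a with 247 RPM. In primary oocytes the mean was 567 RPM per kb for Nlrp14, 21.7 for Nlrp4b, 9.38 for Nlrp4a, 6.13 for Nlrp4e and 4.90 for Nlrp9a. Nlrp2, Nlrp9c, Nlrp9b and Nlrp4c had between 3.57 and 1.15 RPM per kb there.

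Single primary oocyte libraries did not show the same members. The part of library error in this was not tested. In other oocytes, cut as a pair of sections each, the low member Nlrp4c differed between sections of an oocyte by a median of 1.05. Its largest such difference was 3.09, on the log2(RPM + 1) scale. At a level of 16 RPM or more, a primary oocyte of DRaqL-SC3-seq had 1 to 7 of the 9 genes (median 3) and a later oocyte 5 to 9 (median 8). A primary oocyte with 7 such genes had 59.5 RPM of Nlrp2 and 203 RPM of Nlrp4b, both above the median primary oocyte. Another had 111.1 RPM of Nlrp4a with Nlrp4b, Nlrp4c, Nlrp9a and Nlrp9c at 0, and others stood out by 113.5 RPM of Nlrp4e, 99.7 RPM of Nlrp9a or 251 RPM of Nlrp4b. Leaving Nlrp14 aside, the leading gene among the other 8 was Nlrp4b in 8, Nlrp4a in 4, and Nlrp4e and Nlrp9a in 1 each of the 14 primary oocytes, and it held a median of 51.5% (27.6 to 89.8%) of their RPM. In later oocytes Nlrp4b led in 15, Nlrp2 in 10, Nlrp4a in 3, and Nlrp9a and Nlrp9b in 1 each of 30, with a median share of 23.8% (19.1 to 43.8%). A primary oocyte's reads were thus held by fewer of the 8 genes than a later oocyte's. In the other methods the leading gene of later oocytes was mostly Nlrp4a, in 9 of 11 with the kit, 6 of 9 in DRaqL with the kit and 5 of 7 after formalin, so the order at the top depended on the method. In primary oocytes of DRaqL with the kit, Nlrp4e led in 5 of 6.

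**Figure D2:**
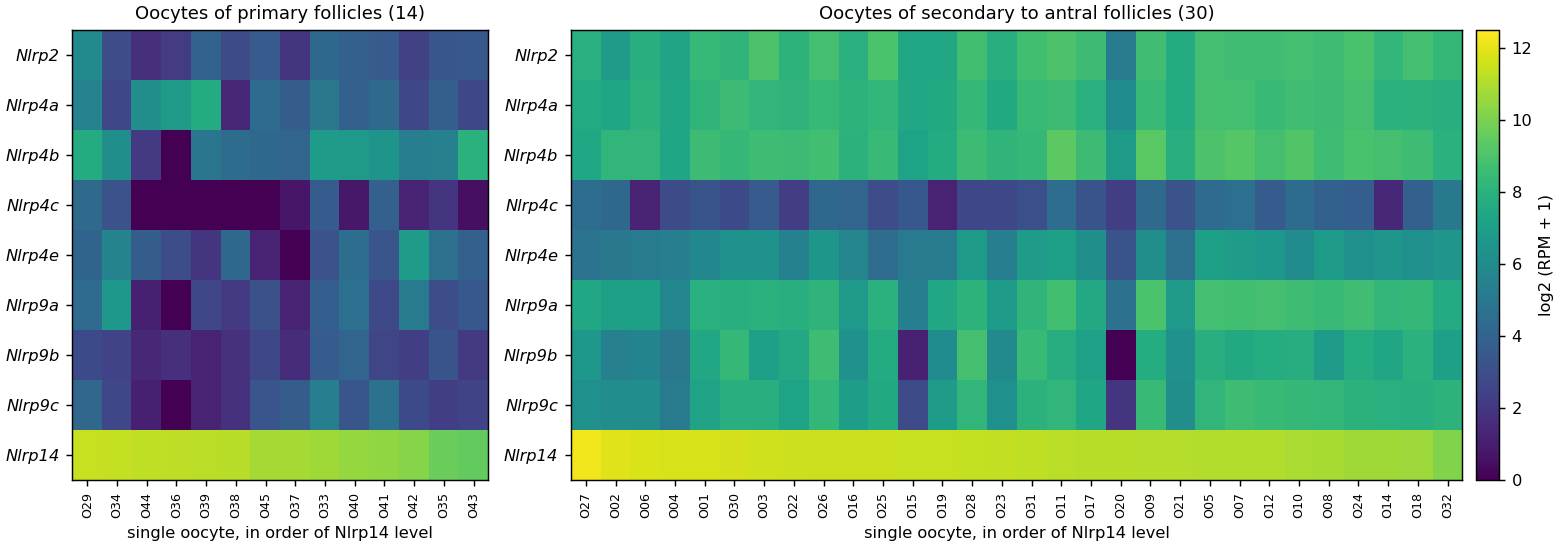
The level of each of the 9 genes, as log2(RPM + 1) on the colour scale, is shown for each DRaqL-SC3-seq oocyte, with primary follicle oocytes apart from later ones. Nlrp14 is high in every column, the other genes are patchy in primary oocytes, and 2 later oocytes are low in Nlrp9b and Nlrp9c.

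Across the 30 later oocytes, the levels of the 8 genes other than Nlrp14 went together. Pearson's r of log2(RPM + 1) between them ran from 0.24 to 0.95 with a median of 0.81 over 28 pairs, none below 0. With Nlrp14 it ran from -0.40 to -0.16 with a median of -0.30, below 0 in 8 of 8. Across the 14 primary oocytes the median was 0.49, with 7 of 28 pairs below 0. These are descriptions over cells, whose animals are not named, and which share a total to which Nlrp14 adds most of the members' reads. In a further set, 8 oocytes were cut as a pair of serial sections each, and the sections were amplified separately. The median absolute difference of the members between sections of an oocyte was 0.32 and between oocytes 0.37. Nlrp14 (0.25 within, 0.72 between), Nlrp4e (0.25 and 0.71) and Nlrp9b (0.19 and 0.46) varied more between oocytes than within, while Nlrp4c (1.05 and 0.88), Nlrp2 (0.34 and 0.27), Nlrp4b (0.29 and 0.22) and Nlrp9c (0.25 and 0.23) did not.

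Genes whose level across the 44 oocytes was most like the log2 of the members' summed RPM, out of 7212 genes whose log2(RPM + 1) averaged 4 or more, were headed by Csrp2bp (r = 0.93), Fbxw15 (0.93) and Rhpn2 (0.92). Among the 10 closest were also Fbxw26 (0.89), Gdf9 (0.89), the oocyte growth factor that acts on granulosa cells, and Zar1 (0.88), an oocyte RNA-binding protein. The summed RPM differs between the stages, and so r over all oocytes holds the stage difference. Over later oocytes alone, r was 0.82 for Gdf9, 0.77 for Fbxw15, 0.75 for Fbxw26 and 0.28 for Sp110, the tenth of the 10. For Csrp2bp, Rhpn2 and Zar1 it was 0.66, 0.59 and 0.50 there. In the 18 oocytes of the kit, it was 0.76 for Gdf9, 0.77 for Fbxw15, 0.77 for Fbxw26 and 0.84 for Sp110. Csrp2bp, Rhpn2 and Zar1 had 0.50, 0.55 and 0.73 in the kit's oocytes.

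Related genes outside the 9 gave a mixed picture. Of 20 other NLR genes measured by DRaqL-SC3-seq, 3 were higher in later oocytes by more than 1 (Nlrp4f, Nlrp4g and Nod2) and 1 was lower (Nlrc3). With the kit it was 6 higher and 4 lower of 20, in DRaqL with the kit 4 and 1 of 18, and after formalin 3 and 5 of 18. Of all genes, 21.2, 24.8, 26.3 and 20.9% were higher by more than 1 in these methods, in the same order. The share of all genes that was lower was not computed. Nlrp4f (9.48 ± 0.50 in later and 7.49 ± 0.53 in primary oocytes) and Nlrp4g (5.78 ± 1.53 and 1.18 ± 0.85), Nlrp4 copies not among the 9, were higher in all 4 methods. Nlrp5 (Mater), of the subcortical maternal complex, was abundant at both stages, with 10.30 ± 0.86 in later and 10.62 ± 0.59 in primary oocytes, and with the kit it was lower in later oocytes (10.47 and 11.72). Within that complex, Tle6, Khdc3 and Zbed3 were higher in later oocytes in all 4 methods, by 1.21, 1.25 and 3.86 in DRaqL-SC3-seq, and the other 3 of 6 differed by less than 1 in that method. Of the inflammasome partners, 1 of 7 was higher in later oocytes, Txnip, which binds thioredoxin and is known to bind NLRP3. Pycard, the inflammasome adaptor, had 0.32 ± 0.75 in later and 0.38 ± 1.42 in primary oocytes on the log2(RPM + 1) scale, near 0 at both stages.

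The same-mouse set compared oocytes cut from sections with those dissociated from the other ovary. Over the 8 LCM and 14 dissociated oocytes, 3 members were higher in LCM oocytes by more than 1 and none was lower, against 16% of all genes higher and 14.2% lower, and the median difference over the 9 was 0.17. Nlrp14 had 3107 to 7244 RPM in LCM and 1505 to 2785 RPM in dissociated oocytes, with no overlap (1.91% of all genes), a difference of 1.13. Nlrp9b was 8.48 ± 1.07 and 6.79 ± 0.55, and Nlrp4c was 4.41 and 2.64 in the mean. Nlrp2 (8.46 and 8.29), Nlrp4a (9.11 and 8.77), Nlrp4b (8.52 and 8.76) and Nlrp4e (6.10 and 6.10) differed by less than 0.5. Nlrp9a (-0.61) and Nlrp9c (-0.84) leaned the other way from Nlrp9b. The labels call the dissociated oocytes grown and the LCM oocytes secondary to antral, and only the dissociated oocytes were held with the cAMP analog, so the method, the medium and the stage of growth cannot be told apart.

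The second question was where else the genes were read. By DRaqL-SC3-seq, all 9 were higher in the 44 oocytes than in the 57 granulosa cells, which the study kept after setting cells with profiles mixed with oocytes apart, by more than 1, against 44.6% of all genes, with a median difference of 5.25 against 0.67. Nlrp14 had 11.12 ± 0.56 in oocytes and 3.37 ± 3.25 in granulosa cells, the largest difference of the 9 (7.75). Nlrp4e had 5.15 and 2.91, the smallest (2.25). All 9 were also higher in oocytes with the kit (50.9% of all genes), after formalin (37.3%), and in the same mouse by LCM (41.5%) and by dissociation (45.7%), with medians of 4.42, 4.17, 7.56 and 6.98. In DRaqL with the kit, 8 of 9 were higher (34.5% of all genes), all but Nlrp4e, which had 5.94 in oocytes and 5.25 in granulosa cells. With primary oocytes alone, the count was 7 of 9 in DRaqL-SC3-seq (40.8% of all genes), 5 with the kit (47.4%), 2 in DRaqL with the kit (30.3%; Nlrp4a and Nlrp14) and 7 after formalin (38.2%). The count was thus lower with primary oocytes alone in each of these methods.

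The genes were read in granulosa cells nonetheless. In DRaqL-SC3-seq, 56 of 57 granulosa cells (98.2%) had at least 1 read of a member. The summed RPM of the 9 had a median of 195 (0 to 2907) in 31 neighboring and 16.4 (1.9 to 996) in 26 non-neighboring cells. Neighboring cells were higher by more than 1 for 3 of 9 members, Nlrp2 (1.04), Nlrp9b (1.08) and Nlrp14 (4.21 ± 3.55 and 2.36 ± 2.58, 1.85), against 2.84% of all genes, and Nlrp4e was not (2.73 and 3.12). Oocyte markers moved with these values: their summed RPM had a median of 2943 in neighboring and 64.2 in non-neighboring cells. The paper reports oocyte-specific genes, Obox genes among them, as higher in neighboring granulosa cells. Ratios to the oocyte markers therefore depend on which markers were chosen. Per 1000 reads of the oocyte markers, granulosa cells had 120 reads of the 9 genes (95% Poisson interval 117 to 122), later oocytes 120, and primary oocytes 194. The sum of the 9 genes in these granulosa cells thus stood to the markers in about the ratio of later oocytes. Single genes did not. Per 1000 marker reads, Nlrp14 (44.7 and 72.8) and Nlrp9a (4.63 and 7.08) were lower in granulosa cells than in later oocytes. So were Nlrp9c (3.98 and 5.59) and Nlrp4c (0.157 and 0.329). Nlrp4e (15.4 and 1.97), Nlrp4b (20.3 and 10.2), Nlrp2 (13.3 and 9.28), Nlrp9b (7.19 and 4.70) and Nlrp4a (9.87 and 8.09) were higher. For the sum, the ratio was higher than in later oocytes with the kit (256 and 147), in DRaqL with the kit (326 and 138) and after formalin (273 and 144). Cells whose numbers ran from 073 to 100 had a median sum of 398 RPM (15 cells) and those from 001 to 069 one of 15.6 RPM (42 cells). Member reads were also found in granulosa cells of library pools that held no oocyte, in 24 of 25 neighboring cells of the same-mouse LCM set (median 72.2 RPM) and in 10 of 10 of pools with an oocyte (44 RPM). Among dissociated cells the medians were higher in pools with an oocyte, at 197 RPM against 29.8 RPM in neighboring and 62.4 against 22.4 RPM in non-neighboring cells.

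Nlrp4e, which is expressed in oocytes and early embryos, was read more often beside the markers in granulosa cells than in later oocytes. Granulosa cells of DRaqL-SC3-seq had 15.4 Nlrp4e reads per 1000 oocyte-marker reads, against 1.97 in later and 2.04 in primary oocytes. For Nlrp14 they had 44.7 against 72.8 in later oocytes. Nlrp14 was also below later oocytes in DRaqL with the kit, but above them with the kit alone and after formalin. The contrast of Nlrp4e with Nlrp14 thus depended on the method. With the kit there were 72.98 in granulosa cells, 4.02 in later and 2.11 in primary oocytes, and in DRaqL with the kit 226, 4.34 and 4.15. In the kit's granulosa cells, 1 non-neighboring cell held 1121 of the 1775 Nlrp4e reads, and without it the value was 27.2. After formalin, granulosa cells had 21.7, later oocytes 5.32 and primary oocytes 16.4 Nlrp4e reads per 1000 marker reads. There the granulosa cells were also above later oocytes for Nlrp2 (30.1 and 5.84), Nlrp4a (32.2 and 16.7), Nlrp4b (27.6 and 9.48) and Nlrp9c (34.6 and 13.4). The same held for Nlrp9b (15.9 and 10.4) and, by little, Nlrp4c (1.41 and 1.32). Nlrp4e did not stand alone in the other methods either. In DRaqL-SC3-seq, Nlrp2 (13.3 and 9.28), Nlrp4a (9.87 and 8.09), Nlrp4b (20.3 and 10.2) and Nlrp9b (7.19 and 4.70) were also above later oocytes. So were Nlrp2 (16.1 and 6.65), Nlrp4a (17.6 and 10.4), Nlrp9b (14.3 and 5.83) and Nlrp9c (13.4 and 8.25) with the kit. In DRaqL with the kit, Nlrp4b (14.9 and 7.28), Nlrp4c (2.95 and 0.757) and Nlrp9c (9.38 and 8.84) were above them. Nlrp9a was below later oocytes in each method. In DRaqL with the kit, so were Nlrp2 (2.08 and 7.83), Nlrp4a (9.64 and 13.4) and Nlrp9b (7.38 and 11.4). In DRaqL-SC3-seq, Nlrp4c (0.157 and 0.329) and Nlrp9c (3.98 and 5.59) were below, and with the kit Nlrp4b (6.62 and 7.10) and Nlrp4c (0.206 and 0.574). Pooled over cells, Nlrp4e had 42.3 RPM in neighboring and 47.6 RPM in non-neighboring cells of DRaqL-SC3-seq, where the medians over cells were 3.04 and 5.31 RPM and the highest cells had 427 and 532 RPM. It had 123 (95% Poisson interval 117 to 130) and 98.3 (93 to 103.9) RPM pooled in DRaqL with the kit, with medians of 95.3 and 76.8 RPM. In these non-neighboring cells, Nlrp14 had 0.392 RPM and no other member over 1.3 RPM. Reads of Nlrp4e were found in 37 of 57 granulosa cells of DRaqL-SC3-seq (64.9%, 95% Clopper-Pearson interval 51.1 to 77.1%) and 32 of 39 of DRaqL with the kit (82.1%, 66.5 to 92.5%). In LCM-seq, which lyses without DRaqL, Nlrp4e had 57.5 RPM in neighboring and 66.6 RPM in non-neighboring cells, where Nlrp14 had 2.06 RPM. The same-mouse granulosa cells were lower, at 18.3 and 5.65 RPM by LCM and 23 and 25.4 RPM by dissociation. These intervals cover counting error only, since the reads carry no molecular identifiers and copies of a molecule count again.

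Cells with few oocyte-marker reads were looked at apart. In DRaqL with the kit, 15 of 19 non-neighboring cells had under 16 RPM of the 14 oocyte markers together, and 13 of these 15 had Nlrp4e reads, up to 259 RPM, while 11 had reads of the other 8 members, which reached at most 48.8 RPM together. Over all 19 non-neighboring cells, the summed oocyte markers had a median of 5.00 RPM and a highest value of 374 RPM. In DRaqL-SC3-seq, 11 of 26 non-neighboring cells were under that level, and 8 of them had Nlrp4e reads, up to 56.5 RPM, and 8 had reads of the others, up to 19.3 RPM. With the kit, 1 of 6 such non-neighboring cells had Nlrp4e reads, at 57.4 RPM, and 3 had reads of the others, up to 19.3 RPM, while 3 of 5 such neighboring cells had Nlrp4e, up to 13.1 RPM, and 2 had the others, up to 15.6 RPM. All 7 bulk granulosa samples had Nlrp4e, with a lowest, median and highest value of 23.3, 34.2 and 64.6 RPM. Nlrp14 had 0, 5.76 and 138 RPM there, and its pooled value was 34.6 RPM with and 14.5 RPM without the highest sample. In bulk samples and pools, fewer cells of a type and less RNA per cell cannot be told apart.

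**Figure D3:**
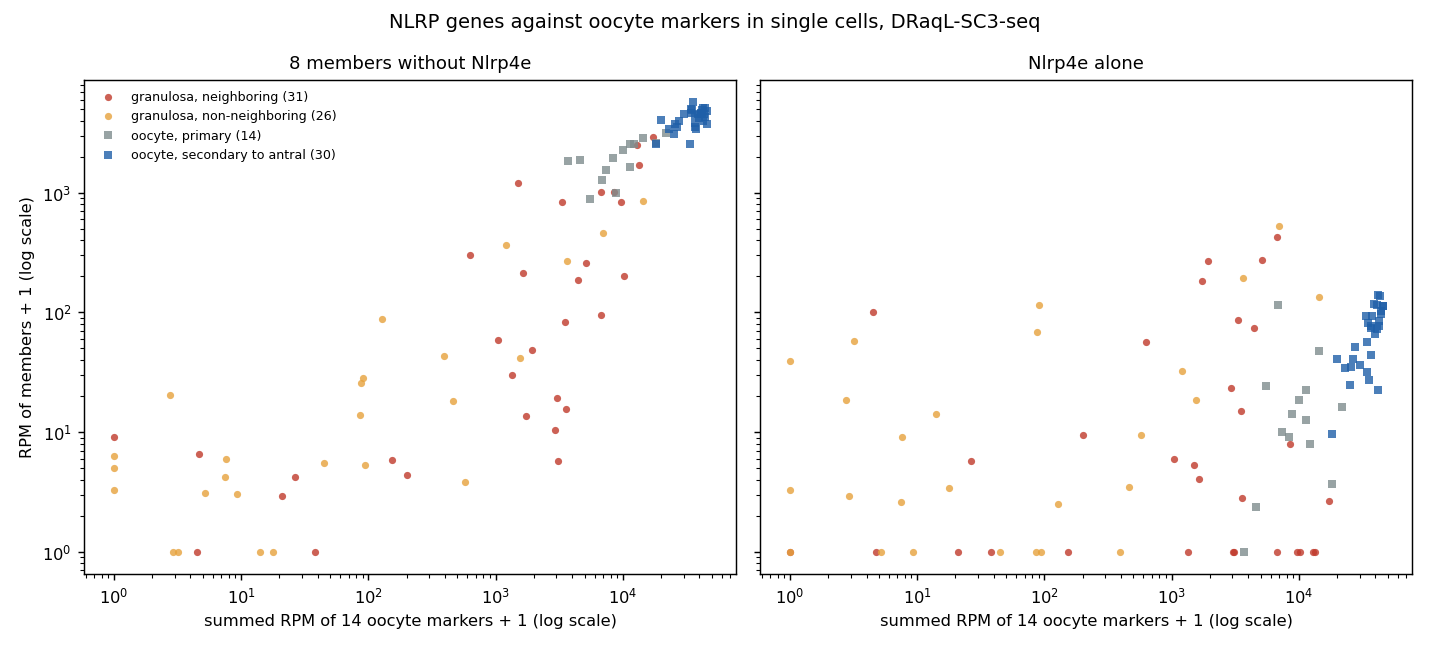
The summed RPM of the members other than Nlrp4e (left) and that of Nlrp4e (right) is plotted against the summed RPM of the 14 oocyte markers for each DRaqL-SC3-seq oocyte and granulosa cell, on log axes of RPM + 1. The sum of the 8 genes goes down with the markers from oocytes to granulosa cells, while Nlrp4e reaches 100 RPM in a granulosa cell with under 16 RPM of the markers.

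The pools of 10 granulosa cells, with 7 of each kind, were the only set with repeated samples to test. Whether they came from separate mice is not given, so p-values measure the spread between these pools. Nlrp2 had a lowest, median and highest value of 2.34, 20.5 and 238 RPM in neighboring and 0, 0 and 1.20 RPM in non-neighboring pools. Its log2 fold change was 7.56 (SE 1.67, adjusted p = 0.047, edgeR quasi-likelihood test with Benjamini-Hochberg adjustment over all genes tested). Nlrp14 had 7.97, 64.6 and 484 RPM against 0, 0.176 and 2.80 RPM, a log2 fold change of 6.5 (SE 1.37, adjusted p = 0.034 by edgeR). For both, all 7 neighboring pools lay above every non-neighboring pool, as for 0.384% of the 19026 genes with reads.

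Over all genes, 44 of 9704 tested were higher in neighboring pools (0.453%), and none was lower by edgeR, while 402 genes had an unadjusted p under 0.05 in either direction and DESeq2 called 110 lower. Of the members, 4 passed the filter on low counts. Nlrp9b had 1.92, 10.6 and 65 RPM against 0, 0.63 and 2.11 RPM, and its log2 fold change of 4.46 (SE 1.22) did not pass the test (adjusted p = 0.20 by edgeR). Nlrp4e had 4.95, 44.3 and 83.9 RPM against 3.93, 39.2 and 52.7 RPM, a log2 fold change of 0.34 (SE 0.88, adjusted p = 0.998 by edgeR). The pools of both kinds therefore overlapped over most of their range for Nlrp4e. Nlrp9a, at 1.24, 47.8 and 133 RPM in neighboring and 0, 0 and 0.800 RPM in non-neighboring pools, was not tested, since the filter removed it, though all 7 neighboring pools lay above the rest. Nlrp4a, Nlrp4b, Nlrp4c and Nlrp9c were not tested either, with 3, 4, 1 and 2 of 7 neighboring pools above every non-neighboring one.

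Oocyte markers passed the same test in 9 of 14 cases, and granulosa markers in 0 of 6 tested. The summed RPM of the oocyte markers had a median of 1582 in neighboring and 66.4 in non-neighboring pools, and its part in the difference of Nlrp2 and Nlrp14 was not tested. None of 2 other NLR genes or 4 inflammasome partners tested passed, and 1 of 5 tested subcortical maternal complex genes did. Leaving out any pool number from 1 to 7 ended the call of Nlrp2 (adjusted p from 0.053 to 0.28, edgeR), and leaving out any number but 3 ended that of Nlrp14 (0.063 to 0.41).

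**Figure D4:**
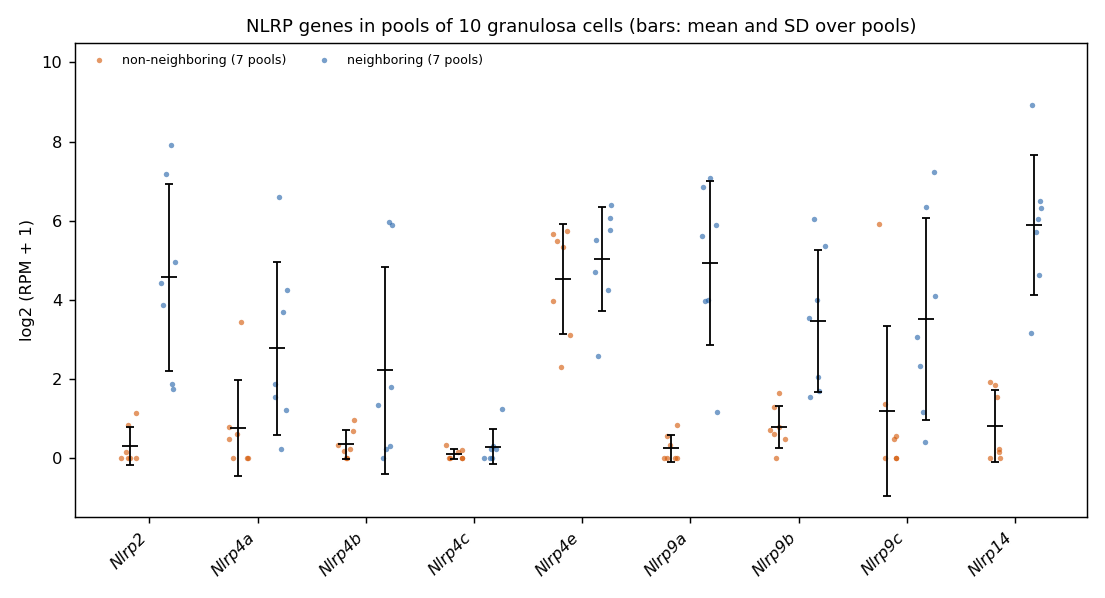
The level of each member in each pool of 10 granulosa cells is plotted as log2(RPM + 1), for 7 neighboring and 7 non-neighboring pools, with bars for the mean and SD over pools. Nlrp2, Nlrp9a and Nlrp14 do not overlap between the kinds of pool, and Nlrp4e lies at similar levels in both.

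In mESCs, Nlrp4e and Nlrp4a were the members with the most reads. Pooled over the 36 LCM cells, Nlrp4e had 19.6 RPM, Nlrp4a 8.5 RPM and Nlrp14 2.39 RPM, and the other 6 genes had 0.681 RPM or less. In the 45 fresh cells, Nlrp4e had 13.5 RPM, Nlrp4a 4.53 RPM, Nlrp14 3.72 RPM and Nlrp4c 2.48 RPM, with the other 5 genes at 0.922 RPM or less. Reads of Nlrp4e were found in 27 of 36 LCM cells (75%) and 36 of 45 fresh cells (80.0%), and those of Nlrp14 in 4 LCM cells. Against LCM mESCs, which were deposited in a separate table, all 9 genes were higher in oocytes (35.1% of all genes), by a median of 5.48. Nlrp14 differed most (11.12 and 0.24, 10.88) and Nlrp4e least (5.15 and 2.46, 2.69), and Nlrp2 and Nlrp14 did not overlap (1.4% of all genes). The pluripotency markers, by contrast, summed to a median of 1499 RPM in LCM and 1524 RPM in fresh mESCs.

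**Figure D5:**
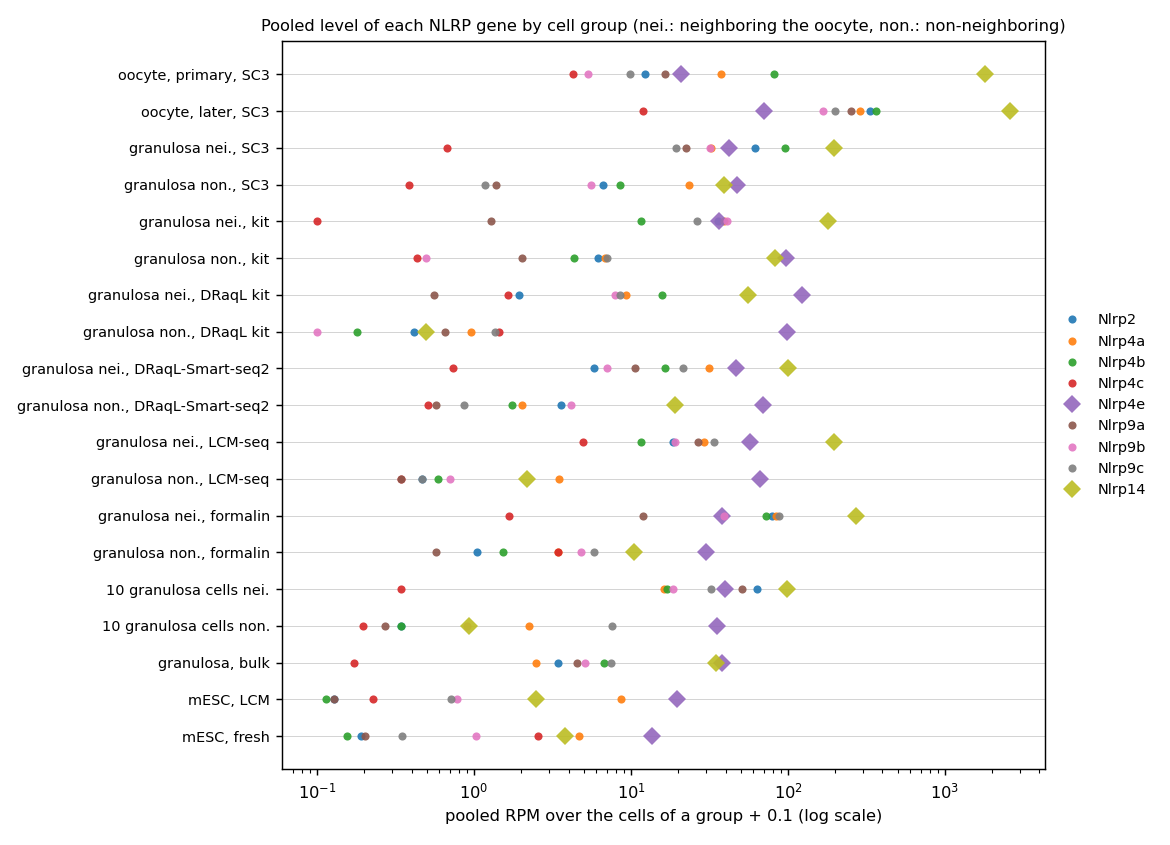
The pooled RPM of each member over all cells of a group, plus 0.1, is plotted on a log axis for oocyte, granulosa and mESC groups, with 1 point per gene and diamonds for Nlrp4e and Nlrp14. Of the groups plotted, which leave out the same-mouse set, Nlrp14 lies between 0.392 and over 1000 RPM, while Nlrp4e stays between 13.5 and 123 RPM.

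A further set of libraries, made with Y-shaped adapters from 5 later oocytes and 10 mESCs, kept the reads of inner exons. Of the mESCs, 5 were labelled fresh and 5 LCM. Of the members' exons, 52 were above the threshold of 2 TMM-scaled CPM in oocytes and 0 in mESCs. The share of all exons above it was not computed, so these counts have no background to be set against. Nlrp14 had 9 of its 12 exons above it, Nlrp9a 7 of 12, and Nlrp2, Nlrp4a, Nlrp4b, Nlrp4e, Nlrp9b and Nlrp9c 6 each of 10 to 13, while Nlrp4c had 0 of 11. An oocyte had 8692 to 17079 exon reads of Nlrp14, 1121 to 2149 of Nlrp2, 736 to 2406 of Nlrp9b, 25 to 538 of Nlrp4e and 6 to 62 of Nlrp4c. Within Nlrp2, reads fell from the 3′ end inward, from 506 to 1010 per oocyte in the last exon to 368 to 685, 127 to 362 and 50 to 158 in the next ones. Reads of this gene were thus concentrated toward the 3′ end. Of the 12 exons of Nlrp2, 5 had 171 bases, the size that codes for a leucine-rich repeat unit in this family.

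In mESCs the exon and gene tables differed. Nlrp4e had 0 exon reads in all 10 libraries, of 6200968 to 16296631 exon reads each, while the gene table gave Nlrp4e reads in 8 of the 10 cells of the same name, up to 89. The gene table also counts reads within 10 kb of a 3′ end. For granulosa cells no exon table was analysed here, so whether their Nlrp4e reads lie in its exons was not tested. Nlrp9b showed the opposite, with 146 exon reads in 2 mESC libraries (120 and 26) whose gene-table cells had 0. Both libraries with Nlrp9b exon reads were LCM cells, and none of the 5 fresh libraries had a read on a Nlrp9b exon or junction. The exon reads came with 14 junction reads, at 2 junctions, of which 9 joined chr7:20045932 to chr7:20049424 and 5 joined chr7:20049594 to chr7:20062589. The joined sequence (25 bases on each side, plus strand, GRCm38) is shown because it identifies the copy, with the upstream exon in capitals.
First junction: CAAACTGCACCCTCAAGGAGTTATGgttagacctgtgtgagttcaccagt
Second junction: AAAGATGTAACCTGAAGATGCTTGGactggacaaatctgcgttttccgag
The first junction passes over the exon at chr7:20048682-20048852, which had a median of 415 and at most 460 reads in an oocyte and 8 reads over the 10 mESCs. It ends at the 171-base Nlrp9b exon printed above, and the second junction starts from it.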

How the data were processed

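The authors deposited raw read counts per gene of 3′-end libraries, and counts per exon and exon junction of libraries with Y-shaped adapters. Per the labels and the study's methods, reads were trimmed with fastp 0.20.0 and cutadapt 1.16, aligned to GRCm38 with HISAT2 2.1.0 and counted with HTSeq 0.10.0, a read within 10 kb of an annotated 3′ end counting to the gene, and exon reads were counted with featureCounts 2.0.1, multi-mapping reads included.

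From the deposited counts, RPM over protein-coding genes and log2(RPM + 1) were computed (Python 3.11.15, pandas 2.3.3). Groups came from the labels. All 9 members and the marker and gene lists were chosen with earlier results of these data known. Every member is named. Of other genes, those past the 2-fold limit in a list and the 10 most like the members' sum could be named. Pools of 10 granulosa cells, 7 of each kind, were tested with edgeR 4.0.16 (R 4.3.3; filterByExpr, TMM scaling, quasi-likelihood test) at an adjusted p of 0.05, with DESeq2 1.42.0 as an alternative. On simulated pools the edgeR step found 9% of genes changed by 2 on the log2 scale and 51% of those changed by 4, with 0 false calls among 9185 genes. Intervals are 95% Poisson or Clopper-Pearson intervals. Alternatives were another pseudocount (0.1 or 10), TMM and DESeq2 size factors, summed counts, thinning to the shallowest oocyte, scaling to ERCC reads, leaving out libraries and an exon threshold of 1 read. Sequences came from RefSeq tables and the GRCm38 annotation. Nlrp14 is named without a promoter.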

Additional observations from a re-analysis of the deposited data

Results flagged for a closer look

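Of 90 pairs of a gene and a group of 4 to 10 libraries, 10 (11.1%) held a library whose gap to the nearest other exceeded Dixon's limit. Normally distributed values pass that limit by chance in about 1 in 20 groups. Where the other values all lie at 0, 1 or 2 reads pass it, so the 11.1% cannot be set against that share. All values are log2(RPM + 1).

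In pools of granulosa cells, the non-neighboring pool 2 had 5.91 of Nlrp9c (295 reads) beside 0 to 1.36 in the others, the non-neighboring pool 4 had 3.43 of Nlrp4a beside 0 to 0.78, and the neighboring pool 2 had 1.23 of Nlrp4c beside 0 to 0.31. Among primary follicle oocytes of DRaqL with the kit, replicate 1 had 0.69 of Nlrp9a from 2 reads and replicate 2 had 1.65 of Nlrp9b from 1 read, with the others at 0.

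Low libraries were found among later oocytes. Nlrp4c was at 0 in replicate 2 of DRaqL with the kit (3.37 to 5.01 in the others) and in formalin replicate 3 (3.71 to 6.19). In the latter oocyte Nlrp4b was also low, at 4.78 beside 7.60 to 8.57. In the same-mouse LCM oocytes, replicate 7 had 2.64 of Nlrp4c (4.00 to 5.19 in the others), and replicate 8 had 6.07 of Nlrp9b (8.21 to 9.45).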

How the results depend on the processing

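No value past its limit changed direction under an alternative. The difference of Nlrp14 between stages with the kit, 0.05, ran from -0.14 to 1.84. Of the 378 values for single members in oocyte comparisons, 361 moved by less than the spread between oocytes. With a pseudocount of 0.1 instead of 1, the median difference over members between later and primary oocytes was 6.07 with the kit and 8.82 in DRaqL with the kit, that of oocytes against granulosa cells 7.39 and against LCM mESCs 8.10. With a pseudocount of 10 these were 3.30, 4.08, 3.06 and 3.36. From summed counts, the stage median was 3.24 with the kit and 5.17 in DRaqL with the kit, and per 1000 ERCC reads it was 3.29, 4.32 and, after formalin, 2.36. Alternatives chosen after seeing the data gave 3.65 against the later oocyte in the library pool of the primary oocytes (kit) and 1.88 for primary oocytes alone against granulosa cells, and leaving out the 2 later oocytes low in Nlrp9b and Nlrp9c changed the DRaqL-SC3-seq median to 3.84. The values without the granulosa cell or bulk sample with the most reads of a gene were also added after seeing the data, and Nlrp4e in DRaqL-SC3-seq was then 12.9 per 1000 marker reads, in DRaqL with the kit 202 and after formalin 17.9. With at least 1 read as the limit, 88 exons of members were above it in oocytes and 13 in mESCs. The cause of these shifts was not tested.

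In the pools, 2 members and 44 genes were higher in neighboring pools with edgeR. DESeq2 called 5 members, 301 genes higher and 110 lower, and no filter on low counts gave 3 members, 55 genes higher and 1 lower. DESeq2 size factors gave 43 genes. With the pool number as a replicate block, 0 members and 3 genes passed (adjusted p = 0.167 for Nlrp2 and 0.135 for Nlrp14, edgeR). The numbers were not taken as pairs, since only 2 of 7 correlations of same-numbered pools exceeded 0.1. Yet 4 of 7 pools correlated best with their own number, and whether same-numbered pools belong together is not given. Leaving out a pool number gave 0 to 2 members, 5 to 34 genes higher (29 without number 1, 34 without 2, 27 without 3, 6 without 4, 5 without 5, 10 without 6 and 22 without 7) and 0 to 1 lower. Of the members not tested by the filter, Nlrp9a passed without the filter (adjusted p = 0.027, edgeR).

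Depth limits the low members: 1 or 2 reads decided Nlrp9a and Nlrp9b in single primary oocytes. The animal of a cell is not given, library pool and stage coincide in DRaqL with the kit, and reads shared by Nlrp4 or Nlrp9 copies were not reassigned.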

Other observations

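A separate DRaqL-SC3-seq table held 3 granulosa cells, which the study set apart for profiles mixed with oocytes and which are not among the 57 compared. Of these, the neighboring cell had 1347 RPM of the 9 genes together and 11803 RPM of the oocyte markers. The non-neighboring cells had 500.5 and 713 RPM of the genes beside 1487 and 2949 RPM of the markers.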
